A study of Mus musculus with 8 samples.

Results

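The genes described here are those of the growth hormone axis in liver: the receptor Ghr, its kinase Jak2, the transcription factors Stat5a and Stat5b, the circulating products Igf1 and Igfals, the feedback inhibitors Socs2 and Cish, and the repressors Bcl6 and Cux2. These 10 genes were chosen by name, out of 34547 genes summed from the transcripts in the files, and all 10 were among the 13678 genes with enough reads to be tested. The mRNA came from the livers of 8 C57BL/6J mice. An adeno-associated virus (AAV), used as a vehicle for genes, had brought mouse Nudt7 into 4 of them and GFP, a fluorescent protein serving as control, into the other 4. All mice were injected through the tail vein at 8 weeks of age with 2.5e+11 viral particles, and all were fasted for 24 h before liver collection, which followed after 3 to 4 weeks, at an age of 11 to 12 weeks. Nudt7 encodes a peroxisomal hydrolase of coenzyme A and acyl-CoAs, so the comparison is of fasted livers given extra Nudt7 against fasted livers given GFP. The labels name no promoter for either vector and no sex, and there is no group without virus and no fed group among the samples.

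Growth hormone from the pituitary binds its receptor on hepatocytes, which activates the kinase JAK2 and through it the transcription factors STAT5A and STAT5B. STAT5 raises transcription of Igf1, which carries much of the hormone's effect on growth, and of Socs2 and Cish, whose proteins damp the signal. In mice the hormone is released in a different pattern in males and females, and liver genes of sex-biased expression follow that pattern, with the repressor BCL6 more abundant in males and the repressor CUX2 in females.

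Nudt7 itself was at 1301 to 3569 CPM in livers labelled Nudt7 and 60.7 to 79.9 CPM in livers labelled GFP (CPM is reads per 1e+06 after scaling of the libraries). The libraries held 11187806 to 23640734 estimated reads. A pair of facts of the libraries bear on the values below. The first principal component (36.3% of the variance) placed Nudt7 replicate 3 at 63.1 and the remaining 7 libraries between −19.9 and 2.83. GFP replicate 4 stood at −38.6 on the second component, where the others lay between −8.41 and 24.2. All 8 hepatocyte markers checked had reads in every library, summing to 69711 to 96467 CPM in Nudt7 livers and 83093 to 102322 CPM in GFP livers. Of the 8, 2 had fold changes above 0 and 6 below. Tat (means 1556 and 2800 CPM in Nudt7 and GFP livers, without overlap) and Cps1 (7145 and 9758) were lower at an edgeR unadjusted p under 0.05. That is 25% of the 8, against 4.03% of all genes tested, and 0 were higher. All 4 Y-linked genes checked also had reads in every library. Of the other cell types, the 5 cholangiocyte markers summed to 31.6 to 42.5 CPM in Nudt7 and 17.3 to 29.4 CPM in GFP livers, and the 7 endothelial markers to 318 to 345 and 351 to 385 CPM, without overlap in either list. Most of the cholangiocyte sum came from Spp1 (means 14.9 and 6.86 CPM in Nudt7 and GFP livers) and Sox9 (15.4 and 12.4). Krt19 (1.16 and 0.812), Epcam (1.49 and 0.814) and Krt7 (2.13 and 2.24) were low. Of the endothelial markers, Lyve1 was at 43.6 and 58.6 CPM, and Kdr alone had a fold change above 0 (53.4 and 50.5 CPM). Red blood cell transcripts (5 genes) ran from 303 to 1813 CPM in Nudt7 livers, the highest in replicate 3, and from 412 to 598 CPM in GFP livers. The ranges of the Kupffer cell (8 genes), stellate cell (7) and lymphocyte (7) lists overlapped between groups. Of the markers of these cell types, 0 were without a read in all libraries. The part of cell composition in the results below was not tested. In whole liver, fewer cells of a type and less RNA per cell cannot be told apart.

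Socs2 and Cish, the STAT5-driven feedback inhibitors, and Cux2 had the lowest fold changes of the 10 genes in Nudt7 livers, and Bcl6 and Ghr the highest. By edgeR, 0 of the 10 passed an adjusted p of 0.05 (Benjamini-Hochberg over all genes tested), where 0.117% of all genes tested passed. Before adjustment, 2 of the 10 had a p under 0.05 with higher values in Nudt7 livers (Ghr and Bcl6), against 4.25% of all genes tested, and 4 had one with lower values (Socs2, Cux2, Cish and Igf1), against 4.03%. For Ghr all 4 Nudt7 livers lay above all 4 GFP livers, which was the case for 2.74% of all genes, and for Socs2, Cux2 and Igf1 they all lay below, as for 3% of all genes. DESeq2, run as an alternative, called Socs2, Cish and Cux2 lower, 3 of the 10 against 0.493% of the 12986 genes to which it gave an adjusted p. Limma-voom, with and without sample weights, called 0 of the 10. The genes were chosen with earlier results of these data known, so their share is a description of them and not independent evidence.

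**Figure D1:**
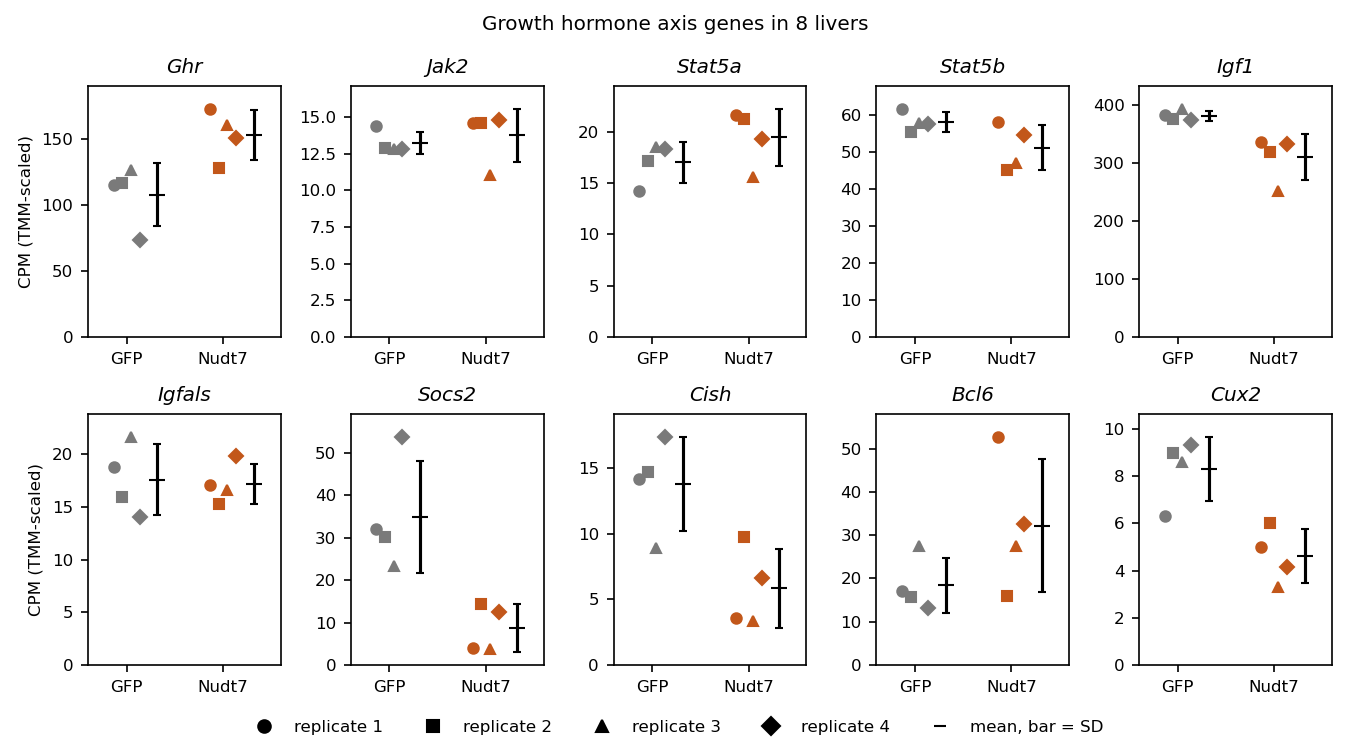
Expression of the 10 genes in each of the 8 livers, in CPM after TMM scaling, with each panel's axis from 0; grey symbols are GFP livers, orange symbols Nudt7 livers, the symbol shape gives the replicate number, and bars show mean and SD of 4. The groups separate for Ghr (Nudt7 higher) and for Igf1, Socs2 and Cux2 (Nudt7 lower), and overlap for the other 6.

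Ghr encodes the growth hormone receptor. It lies on chromosome 15 (3317760 to 3583492, minus strand, GRCm38), and the files held 10 transcripts of it. A pair of them carried most of its signal. They share their first 811 coding bases and then part: ENSMUST00000069451.10 goes on into the exon of the membrane-spanning segment and codes for 650 amino acids, while ENSMUST00000110698.8 takes another exon and ends at 297. In mice a short form of this kind yields the soluble growth hormone binding protein, which lacks the membrane anchor and the signalling tail. The last 30 shared bases (lower case) and the 83 bases that follow in each transcript (capitals) are printed below from GENCODE M21 transcripts of GRCm38 because the reads of the forms can be told apart only outside the shared stretch. The capitals are bases chr15:3327604-3327686 in the short and chr15:3325906-3325988 in the long transcript, both on the minus strand, and those of the short one end in its stop codon.
Ghr short: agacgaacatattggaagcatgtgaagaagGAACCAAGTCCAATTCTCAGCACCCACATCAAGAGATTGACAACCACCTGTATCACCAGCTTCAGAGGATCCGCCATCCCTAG
Ghr long: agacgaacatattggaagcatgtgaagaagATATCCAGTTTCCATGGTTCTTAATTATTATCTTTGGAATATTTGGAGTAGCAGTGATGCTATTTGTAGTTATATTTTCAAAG

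Ghr was at 173, 128, 161 and 151 CPM in Nudt7 replicates 1 to 4 and at 115, 117, 127 and 73.5 CPM in GFP replicates 1 to 4. The lowest Nudt7 liver and the highest GFP liver were almost level, and GFP replicate 4 was well under the rest. Its means were 153 ± 19.0 and 108 ± 23.7 CPM (SD, n = 4 each), 1.42-fold higher with Nudt7 (log2 fold change 0.50, SE 0.17, 95% interval 0.12 to 0.88, edgeR unadjusted p = 0.0139, adjusted p = 0.464). Measured as TPM, which also divides by transcript length, Ghr was at 110 ± 16.2 and 74.9 ± 15.3.

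Of its main forms, the short one separated the groups. ENSMUST00000110698.8 (1171 bases, 891 of them coding) was at 60.7, 39.1, 68.4 and 39.1 TPM in Nudt7 livers and at 30.4, 33.4, 33.4 and 27.7 TPM in GFP livers. All Nudt7 livers were above all GFP livers, with means of 51.8 ± 15 and 31.2 ± 2.73 TPM (SD, n = 4 each; exact permutation p = 0.0286, the smallest that 4 against 4 allows, adjusted p = 0.109 over the 19 transcripts tested). The long form ENSMUST00000069451.10 (4175 bases, 1950 coding) was at 40.0, 31.1, 26.6 and 35.6 TPM against 31.9, 29.2, 35.1 and 16.9 TPM, and the groups overlapped (33.3 ± 5.79 and 28.3 ± 7.98 TPM, exact permutation p = 0.400, adjusted p = 0.611). As a share of all Ghr TPM the short form held 47.2% ± 12.3 in Nudt7 and 42.7% ± 6.83 in GFP livers (exact permutation p = 0.629, adjusted p = 0.746). The long form held 30.4% ± 3.82 in Nudt7 and 37.3% ± 4.64 in GFP livers (exact permutation p = 0.0857, adjusted p = 0.326). Without GFP replicate 4 the p of the long form's share was 0.0286 (exact permutation, adjusted p = 0.271). After adjustment a shift between the forms was not shown. The test could hardly have shown one, since an exact p of 0.0286 passes only where most of the 19 reach it.

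**Figure D2:**
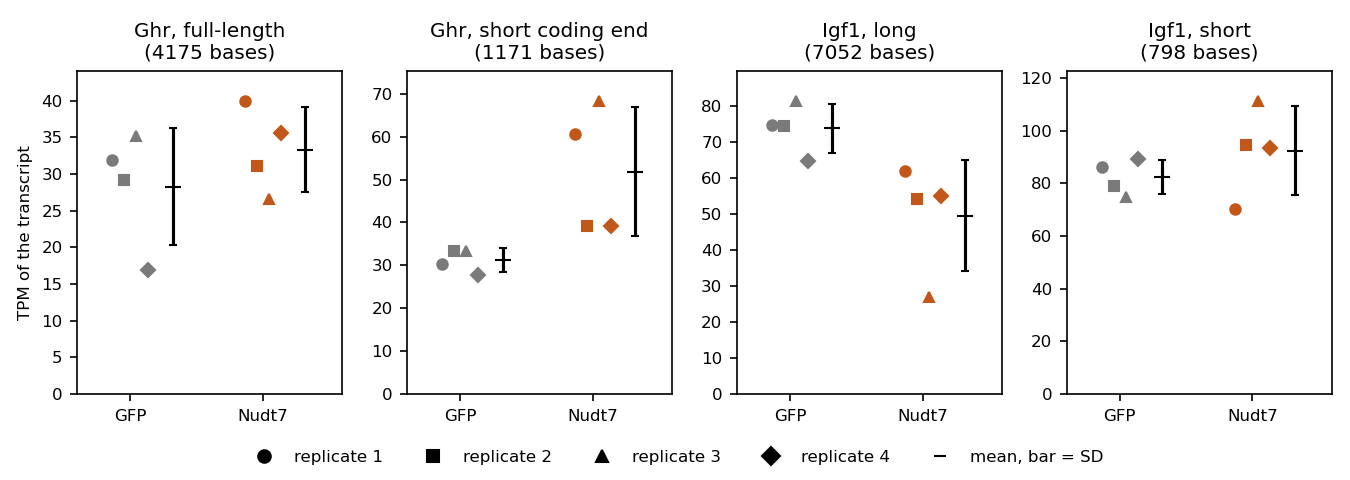
TPM of a pair of Ghr transcripts and a pair of Igf1 transcripts in each liver, with axes from 0; colours, symbols and bars are as in the plot of the 10 genes (bars: mean and SD of 4). The short Ghr form (27.7 to 33.4 TPM in GFP, 39.1 to 68.4 in Nudt7) and the long Igf1 transcript (64.8 to 81.5 in GFP, 26.9 to 62.0 in Nudt7) separate the groups, and the others overlap.

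Jak2 encodes the kinase bound to the receptor and lies on chromosome 19 (29251828 to 29313080, plus strand). It stood at 14.6, 14.6, 11.0 and 14.8 CPM in Nudt7 livers and 14.4, 12.9, 12.8 and 12.8 CPM in GFP livers, with the groups overlapping. Its log2 fold change was 0.06 (SE 0.13, 95% interval −0.24 to 0.35, edgeR adjusted p = 0.918). The sign turned on the log2(TPM + 0.1) scale.

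Stat5a and Stat5b, the genes of the hormone's main transcription factors, are neighbours on chromosome 11 (100859351 to 100885169 on the plus strand and 100780731 to 100850724 on the minus strand). Stat5b was the more abundant per length, at 14.5 ± 2.51 TPM over the 8 livers against 8.48 ± 1.93 TPM for Stat5a. Stat5b was at 58.1, 45.1, 47.0 and 54.5 CPM with Nudt7 and 61.7, 55.4, 57.9 and 57.5 CPM with GFP (log2 fold change −0.18, SE 0.12, 95% interval −0.44 to 0.07, edgeR adjusted p = 0.691). Stat5a was at 21.6, 21.3, 15.6 and 19.3 CPM with Nudt7 and 14.2, 17.2, 18.5 and 18.3 CPM with GFP (0.19, SE 0.14, 95% interval −0.12 to 0.50, adjusted p = 0.719). The groups overlapped for both. The genes are paralogs, and 11.7% of the 31-base words of Stat5a and 15.2% of those of Stat5b occur in other genes, mostly in each other, so the split of reads between them is uncertain. Their summed counts gave a log2 fold change of −0.09 (adjusted p = 0.837).

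A pair of Stat5b transcripts begin at different first exons and hold the same number of coding bases (2358). ENSMUST00000004143.2, which begins at the upstream exon (base 100850724), was at 9.88, 7.21, 8.20 and 8.56 TPM with Nudt7 and 6.93, 7.13, 8.86 and 7.36 TPM with GFP. ENSMUST00000107358.8, which begins at the internal exon (base 100822528), was at 5.66, 4.66, 1.15 and 5.63 TPM with Nudt7 and 9.39, 7.90, 7.81 and 6.93 TPM with GFP, all 4 Nudt7 livers below all 4 GFP livers. The internal start held 30.6% ± 12.2 of Stat5b TPM with Nudt7 and 50.2% ± 3.35 with GFP (SD, n = 4 each; exact permutation p = 0.0286, adjusted p = 0.271 over 19 shares). Of those 19 transcript shares of the 10 genes, 0 passed after adjustment. A pass needs most of the 19 at the smallest exact p, so this outcome was nearly fixed and decides little. The 2 shares of Stat5b had an unadjusted exact p under 0.05. These 2 are near complements, since the remaining transcript held 2.63% of Stat5b TPM, so they are not separate results. For the upstream share the exact permutation p was 0.0571 without Nudt7 replicate 3 and 0.0857 without any 1 GFP library. For the internal share it stayed at 0.0286. Nudt7 replicate 3, with an internal share of 12.3%, was far below the other 3 Nudt7 livers.

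Igf1, the gene of insulin-like growth factor 1, was the most abundant of the 10 per length, at 243 ± 9.94 TPM over the 8 livers. It lies on chromosome 10 (87858265 to 87937042, plus strand). In CPM it was at 336, 319, 252 and 333 with Nudt7 and 383, 375, 393 and 374 with GFP, so that every Nudt7 liver was below every GFP liver and Nudt7 replicate 3 was the lowest. The means of 310 ± 39.5 and 381 ± 8.89 CPM (SD, n = 4 each) gave a log2 fold change of −0.30 (SE 0.13, 95% interval −0.58 to −0.02, edgeR unadjusted p = 0.0388, adjusted p = 0.581). The difference depended on how transcript length was handled: with offsets for the effective lengths in each library the log2 fold change was 0.09 (adjusted p = 0.882), and in TPM Igf1 was at 239 ± 7.62 and 247 ± 11.4. With each library's trend on transcript length removed, the log2 fold change stayed at −0.29 (adjusted p = 0.425).

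The transcripts of Igf1 show where the scales part. ENSMUST00000095360.10, with 7052 bases of which 459 code, held 71.5% of the gene's reads but 25.3% of its TPM. It was at 62.0, 54.2, 26.9 and 55.1 TPM with Nudt7 and 74.6, 74.4, 81.5 and 64.8 TPM with GFP, all Nudt7 livers below all GFP livers (49.5 ± 15.5 and 73.8 ± 6.83 TPM, exact permutation p = 0.0286, adjusted p = 0.109). ENSMUST00000105300.8 (1673 bases) went the other way without overlap, at 22.7 ± 4.94 and 12.4 ± 3.71 TPM. The short transcripts ENSMUST00000121952.7 (798 bases, 92.4 ± 16.9 and 82.4 ± 6.57 TPM) and ENSMUST00000122100.2 (651 bases, 63.1 ± 8.51 and 69.4 ± 7.65 TPM) overlapped between groups (SD, n = 4 each).

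Igfals encodes the acid-labile subunit, which holds IGF1 in its circulating complex. It lies on chromosome 17 (24865997 to 24882010, plus strand), and 1 of its 6 annotated transcripts was in the files. It stood at 17.0, 15.3, 16.6 and 19.8 CPM with Nudt7 and 18.8, 15.9, 21.7 and 14.0 CPM with GFP, groups that overlapped fully. Its log2 fold change of −0.03 (SE 0.16, 95% interval −0.37 to 0.31, edgeR adjusted p = 0.970) changed sign in 5 of 18 alternatives.

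Socs2 had the fold change farthest from 0 of the 10. The gene, on chromosome 10 (95385362 to 95417180, minus strand), encodes a ubiquitin ligase adaptor that removes the growth hormone receptor. It was at 3.90, 14.5, 3.71 and 12.4 CPM in Nudt7 livers and 32.2, 30.3, 23.4 and 53.9 CPM in GFP livers. Every Nudt7 liver was below every GFP liver, and Nudt7 replicates 1 and 3 were below replicates 2 and 4. The means were 8.63 ± 5.64 and 35.0 ± 13.2 CPM (SD, n = 4 each), 4.06-fold lower (log2 fold change −2.02, SE 0.44, 95% interval −3.00 to −1.04, edgeR unadjusted p = 0.00100, adjusted p = 0.164; DESeq2 adjusted p = 0.0234). Its main coding transcript ENSMUST00000020215.15 was at 1.25, 6.81, 1.5 and 5.03 TPM with Nudt7 and 15.7, 12.6, 13.6 and 24.2 TPM with GFP, again without overlap. The reads of Socs2 numbered 45 to 1240 per library. Of its 31-base words, 6.18% occur in other genes, most of them in Gm9847.

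Cish encodes the other STAT5-induced feedback inhibitor, CIS. It lies on chromosome 9 (107296026 to 107302784, plus strand). It was at 3.59, 9.71, 3.38 and 6.65 CPM with Nudt7 and 14.1, 14.7, 8.87 and 17.4 CPM with GFP. Nudt7 replicate 2 was above GFP replicate 3, so the groups overlapped by that pair of livers. The means were 5.83 ± 2.99 and 13.8 ± 3.56 CPM (SD, n = 4 each), 2.38-fold lower (log2 fold change −1.25, SE 0.32, 95% interval −1.95 to −0.55, edgeR unadjusted p = 0.00226, adjusted p = 0.238; DESeq2 adjusted p = 0.0222). The transcript of the whole coding sequence, ENSMUST00000085102.5 (771 coding bases), was at 0.313, 1.64, 0.878 and 1.54 TPM with Nudt7 and 3.17, 3.00, 2.28 and 4.17 TPM with GFP, and there the groups did not overlap (exact permutation p = 0.0286, adjusted p = 0.109).

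**Figure D3:**
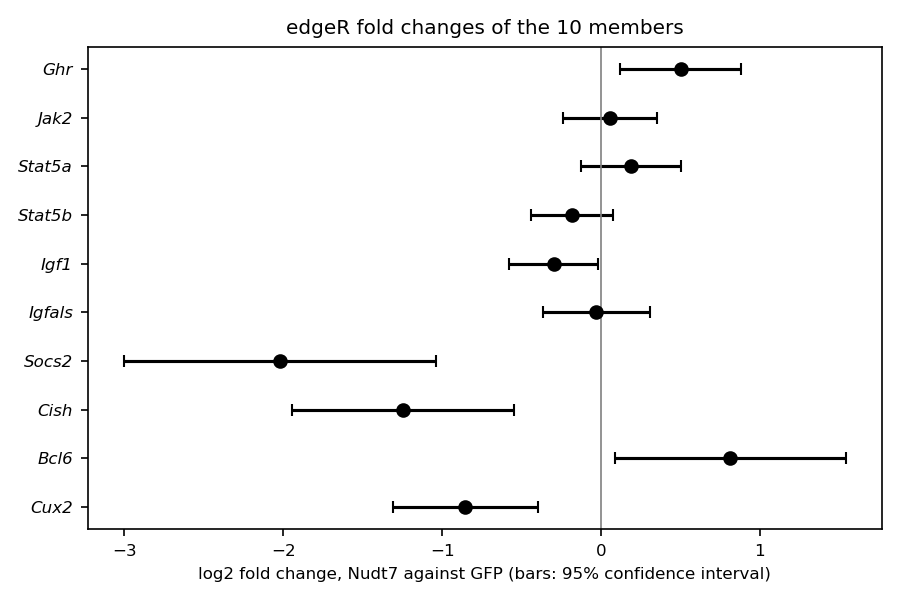
Log2 fold change of each of the 10 genes, Nudt7 against GFP, from edgeR's quasi-likelihood fit on 4 against 4 livers, with 95% confidence intervals as bars. The intervals of Socs2 (−3.00 to −1.04), Cish, Cux2 and Igf1 lie below 0, those of Ghr and Bcl6 (0.09 to 1.54) above 0, and the other 4 span 0; after adjustment over all genes 0 of the 10 passed.

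Bcl6 encodes a repressor that binds the same DNA words as STAT5 and is more abundant in male liver. It lies on chromosome 16 (23965052 to 23988852, minus strand). It was at 52.8, 15.9, 27.5 and 32.6 CPM with Nudt7 and 17.2, 15.7, 27.6 and 13.2 CPM with GFP, and Nudt7 replicates 2 and 3 lay within the GFP range. The means were 32.2 ± 15.4 and 18.4 ± 6.33 CPM (SD, n = 4 each), and edgeR put the log2 fold change at 0.82 (SE 0.33, 95% interval 0.09 to 1.54, unadjusted p = 0.0312, adjusted p = 0.559). Nudt7 replicate 1 set much of this difference, since without it the log2 fold change was 0.49 (adjusted p = 0.634).

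Cux2, a repressor gene that is more abundant in female liver, lies on chromosome 5 (121856366 to 122050102, minus strand). It was at 5.0, 6.01, 3.29 and 4.17 CPM with Nudt7 and 6.30, 8.98, 8.61 and 9.35 CPM with GFP, with all Nudt7 livers below all GFP livers. The means were 4.62 ± 1.16 and 8.31 ± 1.37 CPM (SD, n = 4 each), 1.81-fold lower (log2 fold change −0.85, SE 0.21, 95% interval −1.31 to −0.39, edgeR unadjusted p = 0.00168, adjusted p = 0.205; DESeq2 adjusted p = 0.0298). With effective-length offsets the log2 fold change was −0.49 (adjusted p = 0.661). Most of the reads (54.2%) were given to a non-coding transcript, ENSMUST00000133760.7, whose groups overlapped at 6.21 ± 2.58 and 7.51 ± 1.08 TPM. The coding transcript ENSMUST00000111752.9 was at 0.221, 0.238, 0.142 and 0.206 TPM with Nudt7 and 0.451, 0.624, 0.660 and 0.444 TPM with GFP, levels that rest on few reads (16 to 22 and 44 to 74 reads per library).

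In order of TPM over the 8 livers, Igf1 (243) was followed by Ghr (92.3), Socs2 (18.7), Stat5b (14.5), Igfals (12.0), Bcl6 (10.2), Stat5a (8.48), Cux2 (8.27), Cish (4.48) and Jak2 (3.89). Igf1 was above Ghr, and Ghr above Socs2, in all 8 livers. Socs2 was above Stat5b in 4 of 4 GFP livers and in 1 of 4 Nudt7 livers. Cish was above Jak2 in 3 of 4 GFP livers and in 1 of 4 Nudt7 livers. Bcl6 was above Stat5a in 2 GFP and 3 Nudt7 livers and Stat5a above Cux2 in 0 GFP and 3 Nudt7 livers, so these neighbours cannot be ranked beyond their spread.

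STAT5 and BCL6 bind the word TTCNNNGAA, which reads the same on both strands. It was searched in the RefSeq promoters of GRCm38.p6 (250 bases before to 50 after each annotated start), which hold 16 promoters of 9 of the 10 genes, all but Socs2. The word stood in 5 of the 16, belonging to Cish, Bcl6 and Igfals, and in 8.30% of all 32851 promoters in the table. The Cish promoter held 2 words, as 0.457% of all promoters hold 2 or more, and a Bcl6 promoter held 3, as 0.0335% hold 3 or more. The other Bcl6 promoter, chr16:23988803-23989102, held 1 word. The Igfals promoters with the word held 1 each, and Igfals did not differ (log2 fold change −0.03). A link between the words and the group differences was not tested. The Cish promoter and the Bcl6 promoter with 3 words are printed because these genes had opposite differences between the groups, with each word in capitals. Of the Bcl6 promoters the one with more words was taken, and the outer end of the gene (base 23988852) lies in the other. No words overlap. The Cish window is chr9:107296409-107296708 on the plus strand, where the words begin at bases 251 and 262. The first is at this promoter's annotated start and the second 11 bases after it. The coding transcript ENSMUST00000085102.5 begins upstream of the window, at base 107296026. The Bcl6 window is chr16:23981234-23981533 on the minus strand, with words at bases 83, 129 and 163. A match is a description of letters in this window and not evidence of binding in these livers.
Cish: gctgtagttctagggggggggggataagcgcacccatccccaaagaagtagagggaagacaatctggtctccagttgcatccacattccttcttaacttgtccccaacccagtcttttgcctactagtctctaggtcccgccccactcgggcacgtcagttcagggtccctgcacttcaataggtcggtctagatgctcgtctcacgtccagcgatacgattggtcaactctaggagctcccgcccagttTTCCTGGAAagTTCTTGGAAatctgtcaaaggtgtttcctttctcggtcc
Bcl6: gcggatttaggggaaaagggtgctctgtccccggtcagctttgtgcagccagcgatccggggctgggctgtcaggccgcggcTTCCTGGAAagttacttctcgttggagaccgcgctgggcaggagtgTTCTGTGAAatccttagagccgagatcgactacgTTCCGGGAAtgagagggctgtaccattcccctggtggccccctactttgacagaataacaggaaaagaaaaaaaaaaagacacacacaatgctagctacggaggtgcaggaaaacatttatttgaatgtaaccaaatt

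The livers also differed within groups, and this was examined in 7 pairs of genes. Cish and Bcl6 is the pair for which the groups overlapped in both genes, and over the 8 livers the relation was inverse (Pearson r = −0.855, exact permutation p = 0.00613, adjusted p = 0.0214; Spearman rho = −0.833, exact permutation p = 0.0154, adjusted p = 0.0538). It was r = −0.886 without the 2 livers farthest from the median in Cish, and after each group's mean was subtracted r was −0.798 (permutation within groups, exact p = 0.0399, adjusted p = 0.140) and rho was −0.643 (exact permutation p = 0.149, adjusted p = 0.486). On the TPM scale the pooled r was −0.730 (exact permutation, adjusted p = 0.118). Without GFP replicate 1, 2 or 4 the adjusted p of the pooled r in CPM was 0.0639, 0.0715 and 0.0667 (exact permutation). The pooled values include the group difference, which had opposite signs in Cish (edgeR unadjusted p = 0.00226) and Bcl6 (edgeR unadjusted p = 0.0312). For pairs in which the groups stood apart no pooled correlation is given. Among these, Socs2 and Cish moved together after subtraction of the group means (r = 0.947, exact permutation p = 0.0139, adjusted p = 0.0972; rho = 0.929, exact permutation p = 0.00694, adjusted p = 0.0486). That is, the livers with the least Socs2 in their group, Nudt7 replicates 1 and 3 and GFP replicate 3, also had the least Cish. A group of 4 is too small for a correlation of its own.

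**Figure D4:**
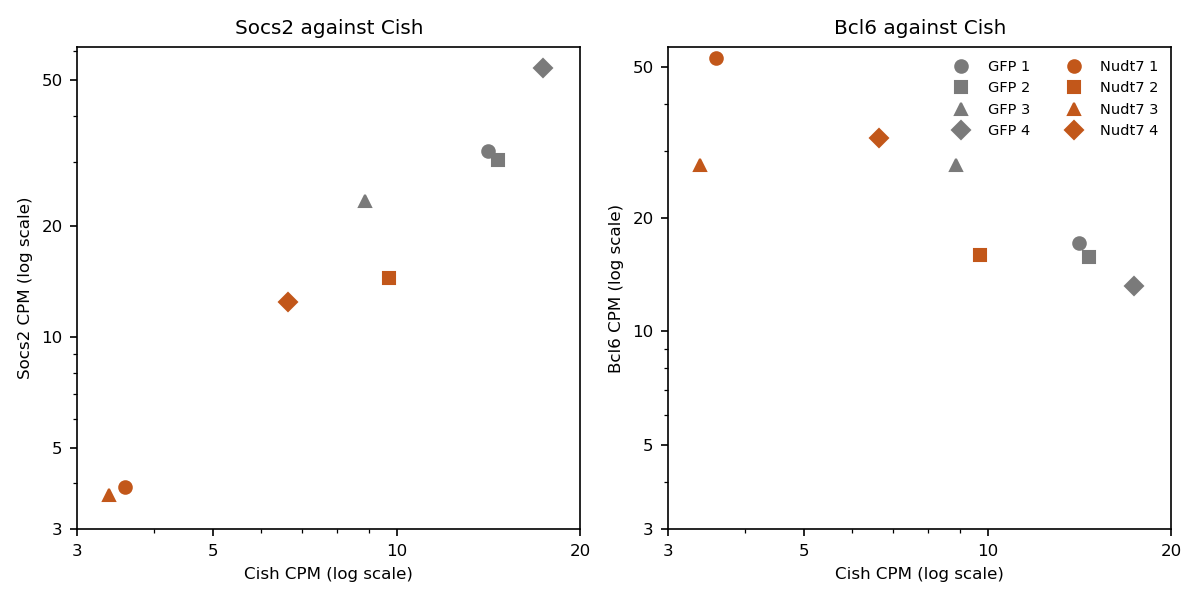
Socs2 (left) and Bcl6 (right) against Cish in each of the 8 livers, all in CPM on log axes; grey symbols are GFP livers, orange symbols Nudt7 livers, and the shape gives the replicate. Nudt7 replicates 1 and 3 are lowest for both Cish (3.59 and 3.38 CPM) and Socs2 (3.90 and 3.71 CPM), and Bcl6 is highest, 52.8 CPM, in Nudt7 replicate 1.

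Among 7933 genes with a mean of at least 10 CPM, the profiles over the 8 livers most like that of Socs2 were those of Stim1 (r = 0.966), Map4k4 (0.965) and Sf1 (0.964). Most like Cish were Kdm5b (0.975), Itga2 (0.962) and Map4k4 (0.956), and among those most like Cux2 were Stat3 (0.956) and Cep170b (0.945). With 8 points, 53, 41 and 26 genes had an r over 0.9 with Socs2, Cish and Cux2, so these names are the first of many. The points share library depth and group.

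Igfbp1 was the gene of the IGF system that differed. It encodes a liver-secreted IGF binding protein that fasting raises and insulin lowers, and it fell with Nudt7, to a mean of 267 ± 75.0 CPM against 1079 ± 401 CPM with GFP (SD, n = 4 each). Its log2 fold change by edgeR was −2.02 (SE 0.29, adjusted p = 0.0400). The single livers were at 327, 184, 223 and 334 CPM with Nudt7 and 1138, 1070, 566 and 1544 CPM with GFP, all Nudt7 livers below all GFP livers. The call was lost without any 1 library other than GFP replicate 3, with adjusted p values from 0.0626 to 0.162, and with sample weights (0.0505) or the length trend removed (0.0517). Of the 11 tested genes of this list (14 in all), 4 had fold changes above 0, the median was −0.23 on the log2 scale against −0.0009 over all genes tested, and Igfbp1 was the 1 gene with an unadjusted p under 0.05 (9.09% of the 11, against 4.03% of all genes on the lower side). The receptor gene Igf1r was at −0.29 (SE 0.21, adjusted p = 0.714), Igfbp4 at −0.13 (SE 0.13, adjusted p = 0.782) and Igfbp2 at 0.24 (SE 0.23, adjusted p = 0.782). Igfbp2 reached 1184 CPM in Nudt7 replicate 3 against 511 to 632 CPM in the other Nudt7 livers, and its sign turned without that library.

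Of the genes that pass on or damp the signal, 24 of 25 were tested, 8 had fold changes above 0 and the median log2 fold change was −0.05. By edgeR 0 passed after adjustment, and 3 (12.5%) had an unadjusted p under 0.05, all lower, against 4.03% of all genes. They were Irs2, the insulin receptor substrate (58.3 ± 20.1 against 97.3 ± 12.4 CPM, log2 fold change −0.74, SE 0.22, adjusted p = 0.370), and the SOCS family genes Socs7 (−0.32, SE 0.14, adjusted p = 0.581) and Socs3 (−0.57, SE 0.26, adjusted p = 0.593). For Irs2 alone among the 24 the groups did not overlap, against 3% of all genes on the lower side, at 63.3, 54.6, 33.3 and 81.8 CPM with Nudt7 and 112, 84.0, 90.6 and 103 CPM with GFP. The kinase gene Tyk2 was at −0.24 (SE 0.12, adjusted p = 0.626).

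Of hepatocyte genes that growth hormone is known to regulate, all 15 were tested, 4 had fold changes above 0 and the median log2 fold change was −0.22. In edgeR 0 passed after adjustment and 3 had an unadjusted p under 0.05, all lower, against 4.03% of all genes. For 2 of the 15, Hnf4a and Lifr, the groups did not overlap, against 3% of all genes on the lower side. Hnf4a, a master regulator of hepatocyte genes, was at 651, 694, 609 and 714 CPM with Nudt7 and 919, 774, 844 and 1066 CPM with GFP, without overlap (log2 fold change −0.43, SE 0.14, adjusted p = 0.422). Lifr, a cytokine receptor gene, also did not overlap (125 ± 19.9 and 155 ± 10.8 CPM, −0.32, SE 0.14, adjusted p = 0.590). Egfr, the growth factor receptor gene, did (278 ± 49.1 and 413 ± 111 CPM, −0.57, SE 0.20, adjusted p = 0.464), as did Gadd45g (−0.75, SE 0.34, adjusted p = 0.600).

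Genes more abundant in male liver, which depend on pulsed growth hormone and STAT5B, were mostly higher by sign. Of 22 tested (23 in all), 21 had fold changes above 0, where 49.8% of all genes tested did, and the median was 0.42. In edgeR 0 passed after adjustment. Before adjustment 8 were higher at a p under 0.05, against 4.25% of all genes, and 0 lower. For 2, Cyp4a12b and Susd4, the groups did not overlap, against 2.74% of all genes. Without Nudt7 replicate 4 these counts were 17 and 9, in a fit where 5.4% and 4.84% of all genes were so placed. Without Nudt7 replicate 3 they were 6 and 2, with 19 positive, where the shares of all genes were 4.3% and 4.22%. Cyp4a12b, a fatty acid hydroxylase of male liver, was at 168, 143, 121 and 80.2 CPM with Nudt7 and 72.1, 62.4, 73.9 and 51.2 CPM with GFP (log2 fold change 0.98, SE 0.21, adjusted p = 0.132; DESeq2 adjusted p = 0.00176). Cyp4a12a (0.84, SE 0.24, adjusted p = 0.325) and Mup21, a major urinary protein gene (0.97, SE 0.26, adjusted p = 0.277), were the others that DESeq2 called higher, as it did 0.685% of all genes. Susd4 was at 11.4 ± 0.676 and 7.62 ± 1.52 CPM (0.59, SE 0.16, adjusted p = 0.277). Cyp4a12a and Cyp4a12b are near copies, with 62.9% of the words of Cyp4a12b found in Cyp4a12a, so they are not separate evidence, and the Mup genes are a family of close copies as well.

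Of genes more abundant in female liver, 10 of 22 were tested and the other 12 had too few reads (50 or fewer over the 8 livers). Among the 10, 4 had fold changes above 0 and the median log2 fold change was −0.14. The sign of that median was not stable: with no filter on low counts 12 of 21 were above 0 (median 0.21), in DESeq2 11 of 21 (0.13), and without Nudt7 replicate 3 the median was 0.005. In edgeR 0 passed after adjustment, 3 were lower at an unadjusted p under 0.05, against 4.03% of all genes, and 0 higher. Fmo2, a flavin monooxygenase gene, was at 32.2, 44.9, 30.7 and 62.2 CPM with Nudt7 and 105, 122, 56.5 and 111 CPM with GFP, overlapping by 1 liver of each group (log2 fold change −1.22, SE 0.27, adjusted p = 0.148; DESeq2 adjusted p = 0.00278). Tox, a nuclear factor gene, was at 10.3 ± 1.5 and 16.2 ± 2.57 CPM without overlap (−0.66, SE 0.16, adjusted p = 0.207; DESeq2 adjusted p = 0.0421). Cyp17a1, a steroid hydroxylase gene, was at −0.73 (SE 0.34, adjusted p = 0.600). With all 8 livers the groups did not overlap for 1 of the 10, lower, against 3% of all genes. The count was 3, all lower, without Nudt7 replicate 4 (5.24% of all genes in that fit) or GFP replicate 3 (664 of 13928 genes). Without any other single library it was 1, where 564 to 855 of all genes tested were so placed.

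**Figure D5:**
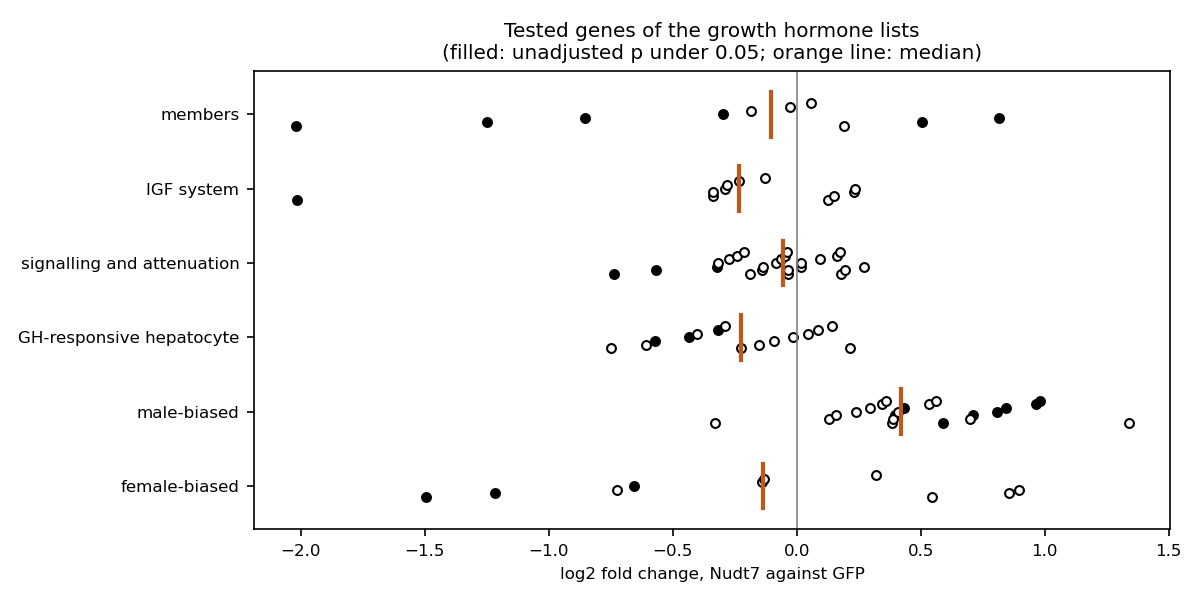
Log2 fold change, Nudt7 against GFP, of each tested gene in 6 lists (10, 11, 24, 15, 22 and 10 genes from top to bottom); filled points have an unadjusted edgeR p under 0.05 and orange lines are list medians. The male-biased genes lie to the right of 0 except for 1, with a median of 0.42, and the 6 genes filled on the row of the 10 members lie on both sides.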

How the data were processed

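FastQC, Salmon, DESeq2 and the build GRCm38 are named as the authors' in the submitters' processing notes. Their versions and the Salmon index were not given in the sources used here. The deposited files held, per the file headers, expected counts (Salmon's estimated reads) and TPM for 109282 transcripts per library. Libraries were made with a stranded mRNA kit from 500 ng of RNA (9 PCR cycles), per the labels' protocols.

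Of the transcripts, 107987 (98.8%) were named from GENCODE M21. The rest, with 0.552% to 1.06% of a library's reads, were left out. Counts and TPM were summed per gene over transcripts, and counts were rounded. The main test was edgeR 4.0.16's quasi-likelihood test (robust, TMM, filterByExpr), two-sided, without covariates, adjusted by Benjamini-Hochberg over 13678 genes (threshold 0.05). The common biological coefficient of variation was 0.196. Transcripts and pairs of genes were tested by exact permutation (the smallest p for 4 against 4 is 0.0286). Over 19 transcripts an adjusted p under 0.05 needs most of them at that smallest p. Shares were tested for transcripts with at least 10% of a gene's TPM. Alternatives used DESeq2 1.42.0, limma 3.58.1, other scalings, filters and length corrections, log2(TPM + 0.1) of the deposited TPM, and each library left out. Correlation of deviations from group means, counts without single libraries and tests of single transcripts' TPM were added after seeing the data.

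Replicates are numbered in accession order, which pairs nothing, and the labels give no batch. P-values measure the spread between the livers as labelled. The 10 genes and the lists were chosen with earlier results of these data known. The text names all 10, up to 4 tested genes of each other list with the smallest unadjusted p, and the 3 genes most like each of the 3 members with the smallest p; the coding Cux2 transcript and the Igf1 transcript ENSMUST00000105300.8 were chosen after their values were seen. Single results for some genes that this rule takes are not reported here. On simulated data of 4 against 4 (3 runs, 13459 to 13493 genes), the share of changed genes found was 14.7% for 1.5-fold changes, 67.3% for 2-fold ones, 98.7% for 4-fold ones and 97.3% for 8-fold ones. Each run changed 200 genes, which eases the adjustment, whereas the real comparison called 16 genes. The simulated counts also held no outlying library such as Nudt7 replicate 3. These shares check the fit under those settings and are not detection rates for these livers.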

Additional observations from a re-analysis of the deposited data

Results flagged for a closer look

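A library was set apart where its gap to the nearest of the other 3 took up most of the range of its group, a rule that chance meets in about 1 in 20 groups. Of 96 groups of 4 examined, 6 met it. Jak2 was at 11.0 CPM in Nudt7 replicate 3, against 14.6 to 14.8 CPM in the other Nudt7 livers, and at 14.4 CPM in GFP replicate 1, against 12.8 to 12.9 CPM in the other GFP livers. Igf1r was at 5.27 CPM in Nudt7 replicate 3, against 10.1 to 10.6 CPM. Tox was at 8.07 CPM in Nudt7 replicate 3, against 10.9 to 11.2 CPM. The short Ghr transcript ENSMUST00000110698.8 held 52.9% of Ghr TPM in GFP replicate 4, against 38.8% to 39.6%. The Stat5b transcript ENSMUST00000107358.8 held 12.3% of Stat5b TPM in Nudt7 replicate 3, against 36.4% to 37.5%. Of the 6, 4 were in Nudt7 replicate 3, the library that stood apart on the first principal component.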

How the results depend on the processing

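Of 10 genes, 3 were called by DESeq2 and 0 in the other 17 alternatives. Over all genes, edgeR called 6 higher and 10 lower; DESeq2 called 89 and 64, limma-voom with sample weights 54 and 40, and limma on log2(TPM + 0.1) 3 and 5. Genes called lower numbered 6 with upper-quartile scaling or effective-length offsets and 5 with limma-voom; those called higher numbered 15 with no filter on low counts and 23 with the length trend removed. With 1 library left out, 1 to 8 were called higher and 1 to 12 lower. Of the 7 pairs, 4 had an adjusted p under 0.05 (exact permutation) over all livers, 1 on the TPM scale and 1 to 4 with 1 library left out. These pooled counts carry the group difference, and the groups stood apart in every such pair but Cish and Bcl6. After subtraction of group means the count was 0 by Pearson r and 1 by rank (Socs2 and Cish). Of 685 recomputed fold changes of 38 genes, 12 changed sign. They were Jak2 (−0.0595) and Stat5a (−0.0340) on the TPM scale, Stat5a summed with Stat5b (−0.0895), Igf1 with effective-length offsets (0.0883), and Igfals with limma-voom (0.0007). Igfals also did so in 4 of the 8 fits that left out 1 library (−0.110 to 0.0989), without Nudt7 replicate 2 or 3 and without GFP replicate 1 or 3. Igfbp2 did so with sample weights (−0.0168), on the TPM scale (−0.0047) and without Nudt7 replicate 3 (−0.0753 to 0.395 over the 8 such fits). The cause was not tested. No paired analysis was possible because the labels give the groups no shared replicate numbers. Depth limited Cux2 and Cish most, with as few as 40 and 41 reads in a library.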
